A study of Homo sapiens with 6 samples.

Results

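The neuroblastoma susceptibility and driver genes are 10 genes that inherited variants, somatic mutations, rearrangements or deletions have tied to this childhood tumour of the sympathetic nervous system: LMO1, BARD1, TERT, CASC15, LIN28B, HACE1, ARID1A, ARID1B, PTPN11 and CHD5. They were chosen by name, with earlier results of these data known, and were looked up among the 38807 protein-coding and long non-coding genes of the annotation. A gene counted as listed when a deposited list of bound promoters, typical enhancers or super-enhancers named it. By that rule 5 of the 10 were listed, all in N-Myc lists, which together named 20% of all genes. The N-Myc enhancer list alone named 31.8% of protein-coding genes. The other 5 genes, LMO1, TERT, CASC15, ARID1B and CHD5, stood in no list of any kind. CASC15 is a long non-coding gene, a kind that the N-Myc enhancer list seldom named.

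Chromatin immunoprecipitation with sequencing (ChIP-Seq) was performed in CHP-134, a human neuroblastoma cell line grown in RPMI medium, with 3 replicates immunoprecipitated with the N-Myc antibody sc-53993 and 3 with the JMJD6 antibody ab64575, whose samples carry the older gene name PTDSR in their titles. The N-Myc chromatin was fixed with formaldehyde alone and the JMJD6 chromatin with disuccinimidyl glutarate before formaldehyde, so antibody and fixation changed together and cannot be told apart. The 12 deposited lists give positions only, of peaks called in all 3 replicates of a protein (common peaks) and of promoters, enhancers and super-enhancers given as bound, so no value per replicate, height or read depth stands behind any position and no difference was tested. No label says whether the replicates came from separate cultures.

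N-Myc is a basic helix-loop-helix transcription factor that dimerises with MAX and binds E-boxes, above all the palindrome CACGTG, and its gene is amplified in a large share of high-risk neuroblastomas. JMJD6 is a Jumonji-domain dioxygenase of the nucleus that acts on arginine and lysine residues. Among the genes described here, LMO1 and LIN28B are oncogenes at association loci, BARD1 and CASC15 carry risk alleles, TERT is switched on by rearrangement, PTPN11 is mutated in the RAS pathway, and ARID1A, ARID1B, CHD5 and HACE1 are lost or inactivated in subsets of tumours.

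The E-boxes under the N-Myc peaks at these genes are shown first, because they are the sequences within these peaks that N-Myc is known to prefer; the lists hold no summit, so the bases bound within a peak are not known. There were 6 CACGTG sites, 5 of them in 4 peaks of the regions naming a member and 1 in a peak inside the body of CASC15. Coordinates are of GRCh37 (hg19), each sequence is the reference plus strand written 5′ to 3′, and the capitals mark the E-box. Sites 1 and 2 lie near the annotated start of ARID1A, at chr1:27019892-27019921 in an untranslated exon and at chr1:27020167-27020196 in an intron. Both also lie in a non-coding exon of ENSG00000260063 and in a listed promoter named LOC101928728. The distances given beside the enhancers imply an ARID1A start downstream of both sites, at 27022523. Site 3, at chr1:27049702-27049787, lies in an ARID1A intron. Site 4, at chr2:215896917-215897002, lies in an intron of ABCA12, in an enhancer that names BARD1. Site 5, at chr6:21781428-21781513, lies in an intron of CASC15. Site 6, at chr6:105404923-105404952, lies at the promoter of LIN28B that the N-Myc list names.
site 1: gctcgggccagcCACGTGcccagctcctcc
site 2: aaacagcttgccCACGTGtagggaaggaga
site 3: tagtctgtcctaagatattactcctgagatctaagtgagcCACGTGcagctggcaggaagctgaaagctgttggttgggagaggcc
site 4: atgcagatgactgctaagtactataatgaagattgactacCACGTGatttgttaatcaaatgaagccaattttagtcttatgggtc
site 5: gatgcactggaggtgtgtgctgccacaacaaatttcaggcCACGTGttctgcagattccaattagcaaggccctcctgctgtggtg
site 6: aattgacaaagtCACGTGtgctcagggggc

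The sites differed in how near they lay to the middle of their peak. Sites 5, 4 and 6 were 34, 47 and 88 bp from the peak centre. Sites 3, 1 and 2 were 273, 419 and 694 bp away, in the 2 widest peaks of ARID1A. CACGTG was present in 4 of the 13 peaks in regions naming a member (30.8%), beside 33.4% of all 10172 N-Myc peaks, so the members' peaks held the canonical E-box about as often as any N-Myc peak.

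At promoters, LIN28B was the only member that the N-Myc list named, 1 of 10, beside 9.87% of all genes (3831 of 38807, exact 95% interval 9.58% to 10.2%). Because 9 of the 10 are protein-coding, the share of protein-coding genes is also given: 17.5% of 20133. The JMJD6 promoter list named none of the 10, beside a background of 0.361%. No member was named in the list of promoters bound by both proteins, which named 0.167% of all genes.

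At typical enhancers, which the authors defined from acetylated histone H3 lysine 27 and annotated with up to 2 nearest genes, N-Myc regions named 5 members: ARID1A, BARD1, HACE1, LIN28B and PTPN11. The background was 16.6% of all genes and 31.8% of protein-coding genes. ARID1A was named in 4 rows, BARD1 and HACE1 in 2 each, and LIN28B and PTPN11 in 1 each, which made 9 different enhancers because HACE1 and LIN28B shared one. The JMJD6 enhancer list named none of the 10 (0.472% of all genes). An enhancer row names its nearest genes and is no measure of which gene it acts on. The distances given below between an enhancer and a gene it names run from the middle of the enhancer.

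No member was named by a super-enhancer, in the N-Myc list (0.683% of genes) or in the JMJD6 list (0.0387%). Over all 3 kinds of region, N-Myc lists named 5 of the 10 beside 20.0% of all genes. The share of protein-coding genes was not computed over all 3 kinds, and the N-Myc enhancer list alone named 31.8% of them. JMJD6 lists named 0 of the 10 beside 0.698% of all genes. A count of 0 of 10 is near a background this low, and these lists cannot show that JMJD6 is absent from the genes.

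The distance from each gene start to the nearest common peak was measured for all 10 genes, listed or not. For N-Myc the distance ran from 0 kb at ARID1A to 1461 kb at ARID1B, with a median of 83.5 kb over the 10 genes, beside 75.9 kb over all genes and 58.8 kb over protein-coding genes. A peak lay within 100 kb of the start of 6 of the 10, beside 56.2% of all genes, and within 1000 kb of 9, beside 96.8%. For JMJD6 the median was 4800 kb, beside 2970 kb over all genes, and only ARID1A had a JMJD6 peak within 1000 kb, at 489 kb downstream, beside 26.2% of all genes. No JMJD6 peak lay inside any of the 10 genes or within 100 kb of a start, a distance reached by 4.48% of all genes.

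**Figure D1:**
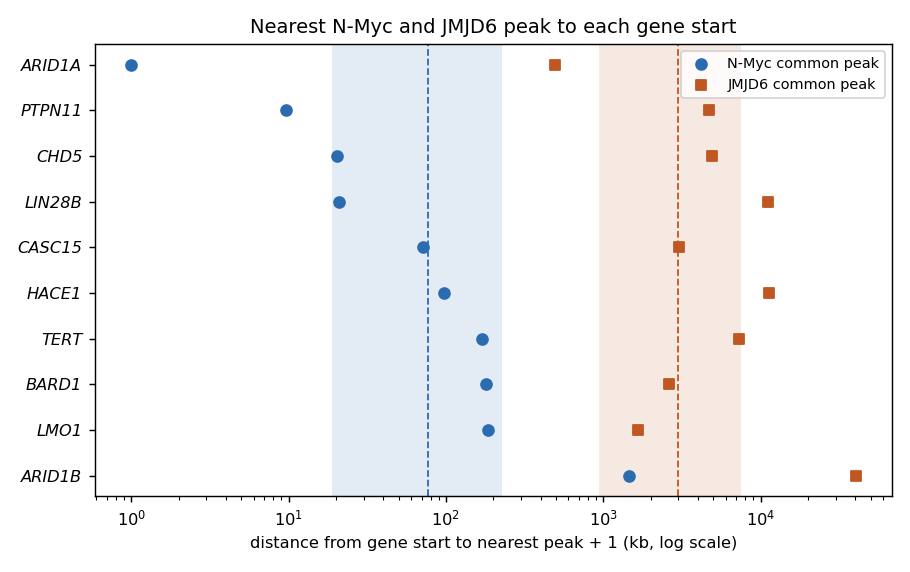
Distance from the annotated start of each of the 10 genes to the nearest common peak, in kb plus 1 on a log scale, for N-Myc (circles) and JMJD6 (squares). Dashed lines are the medians over all 38807 genes and shaded bands their quartiles. The N-Myc distances run from 0 kb at ARID1A to 1461 kb at ARID1B, and every JMJD6 distance is 489 kb or more.

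ARID1A, which encodes a DNA-binding subunit of the BAF form of the SWI/SNF chromatin remodeller, was the member with the most N-Myc peaks within 500 kb of its start. The gene (ENSG00000117713) lies at chr1:27019727-27108595 on the plus strand. A peak of 1561 bp at chr1:27018705-27020265 covered its annotated start, and 99.6% of N-Myc peaks were as narrow or narrower. It held sites 1 and 2, had a GC content of 52.3% and spanned non-coding exons of neighbouring transcripts as well as the first bases of ARID1A.

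That peak was not counted as an ARID1A promoter in the deposited list. The distances beside the enhancers place the start of ARID1A at 27022523, which is 2796 bp downstream of the annotated start, and the peak ended 2.26 kb before that position. The listed promoter under the peak, at chr1:27019622-27021622, carries the name LOC101928728. Genes with an N-Myc peak within 1 kb of the annotated start made up 11.7% of all genes (4555), and ARID1A was the 1 member among them.

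The 4 enhancers naming ARID1A spread from 74.7 kb upstream of that implied start to 92.0 kb downstream. The first, chr1:26947129-26948561, held 2 peaks of 538 and 435 bp with GC contents of 65.6% and 60.0%, and also named RPS6KA1, a ribosomal S6 kinase of the MAPK pathway. The second, chr1:27019151-27025603, was 6.45 kb long and held the peak over the gene start. The third, chr1:27048495-27054709, lay within the gene and held an intronic peak of 871 bp with site 3, as wide as or wider than 94.4% of N-Myc peaks. The last, chr1:27113610-27115532, lay beyond the 3′ end of ARID1A over the listed promoter of PIGV, a mannosyltransferase of GPI anchor synthesis, and its peak of 293 bp sat in an untranslated exon of PIGV. Genes named in 4 or more rows of the N-Myc enhancer list made up 0.446% of all genes (173). That list named mostly protein-coding genes (6412 of 6427), and the share of protein-coding genes with 4 or more rows was not computed. Within 500 kb of the ARID1A start lay 16 N-Myc peaks, beside a median of 4 for all genes.

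LIN28B encodes an RNA-binding protein that blocks the maturation of let-7 microRNAs. The gene (ENSG00000187772) lies at chr6:105384491-105531207 on the plus strand, and its N-Myc peaks were not at the annotated start but 20.1 kb into the gene. The listed promoter, chr6:105403922-105405922, surrounds another start, which the enhancer distances place 20432 bp downstream of the annotated one. The peaks at chr6:105404542-105405153 (612 bp) and chr6:105405306-105406425 (1120 bp) overlapped this promoter, and the first of them covered the downstream start and held site 6. The last peak, of 464 bp at chr6:105406604-105407067, followed.

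Together these peaks lay in 1 enhancer of 21.6 kb, chr6:105387600-105409169, at least as long as 96.5% of the N-Myc enhancers. Over N-Myc enhancers of all lengths, 3.12% (145 of 4649) held 3 or more peaks, and the share among enhancers this long was not computed. The 1120 bp peak was among the widest of the list, since 98.3% of N-Myc peaks were as narrow or narrower. All of these peaks were poor in GC, at 40.4%, 42.3% and 34.9%, beside a median of 53.2% for all N-Myc peaks. The 30 letters printed for site 6 were also found in a promoter window of LIN28B in RefSeq (GRCh38.p14, 250 bases before to 50 after a start), with the E-box 47 bases upstream of that start.

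HACE1, an E3 ubiquitin ligase that marks active RAC1 for degradation, was named by the LIN28B enhancer and by 1 other. The gene (ENSG00000085382) lies at chr6:105175969-105307794 on the minus strand. The middle of the shared enhancer lay 90.6 kb upstream of the HACE1 start. It lay 6.54 kb from the downstream LIN28B start that the enhancer distances imply, and that start is inside the enhancer. The other enhancer, chr6:104340192-104341868, held an intergenic peak of 320 bp and named HACE1 alone from 967 kb away. Of 8892 pairs of an N-Myc enhancer and a named gene, 99.8% were as near or nearer and the median was 46.0 kb. No N-Myc peak lay inside HACE1.

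BARD1, the RING-domain partner of BRCA1, was named by 2 enhancers that lay inside another gene. BARD1 (ENSG00000138376) lies at chr2:215590370-215674407 on the minus strand. The enhancers chr2:215894520-215902755 and chr2:215924769-215926490 were 224 and 251 kb upstream of its start and both also named ABCA12, a lipid transporter of the skin, whose start was 105 and 77.5 kb away. Their peaks were 407, 412 and 340 bp wide, below the median of 418 bp for all N-Myc peaks, and poor in GC, at 36.6%, 35.7% and 45.3%. The 407 bp peak held site 4, and the 412 bp peak was centred on a coding exon of ABCA12. The peak nearest to the annotated BARD1 start lay elsewhere, 178 kb downstream at chr2:215496176-215496461.

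PTPN11 encodes SHP2, a tyrosine phosphatase that activates RAS signalling. The gene (ENSG00000179295) lies at chr12:112856155-112947722 on the plus strand, and 1 enhancer of 11.5 kb, chr12:112846407-112857933, spanned its start. The only N-Myc peak in that enhancer, chr12:112846874-112847580 (707 bp, GC 55.4%), was 8.58 kb upstream of PTPN11 in an untranslated exon of RPL6, a protein of the large ribosomal subunit, whose promoter the N-Myc list named. The enhancer therefore named PTPN11 while its peak lay at the promoter of a neighbour.

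**Figure D2:**
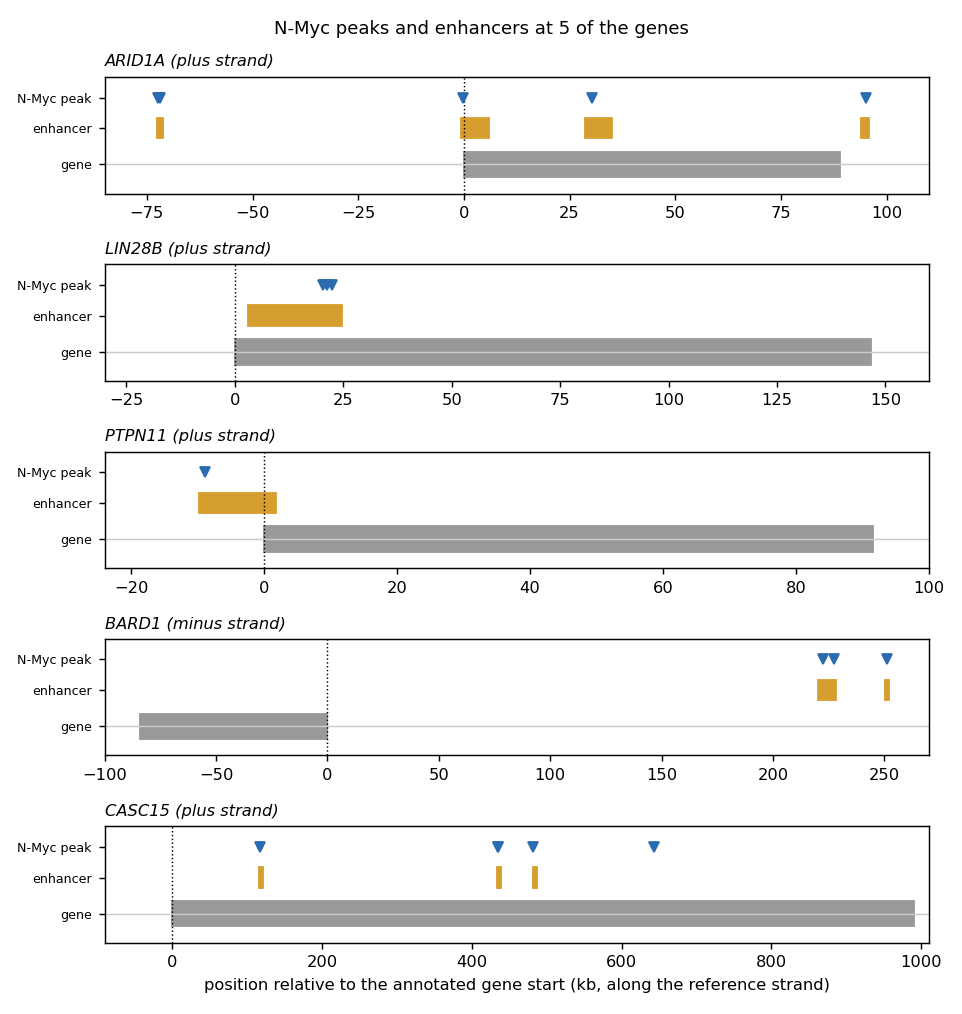
Selected N-Myc common peaks (triangles at their centres) and N-Myc enhancers (bars) at ARID1A, LIN28B, PTPN11, BARD1 and CASC15, in kb from the annotated gene start along the reference strand. Only peaks in regions naming a member or inside a member are drawn. The enhancers are those naming the gene or, for CASC15, those over the peaks inside it. Other peaks, such as that at the SOX4 promoter 70.2 kb upstream of CASC15, are left out. Grey bars are the genes and dotted lines their starts. ARID1A has a peak at its start, the 3 LIN28B peaks lie about 20.1 kb or more into the gene, and the BARD1 peaks lie outside the gene.

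Of the 9 enhancers naming a member, 4 overlapped the listed promoter of another gene (LOC101928728, PIGV, RPL6 or ABCA12), 1 overlapped the LIN28B promoter and 4 overlapped no listed N-Myc promoter. Each of the 9 held at least 1 N-Myc peak, as did 96.9% of all N-Myc enhancers, and none held a JMJD6 peak, beside 1.46% of all N-Myc enhancers (68). The member was the nearer of the genes named in 6 of the 9 enhancers. That was fixed for the enhancer naming HACE1 alone and for the enhancer naming HACE1 and LIN28B. The distances were close for ARID1A and RPS6KA1 at chr1:26947129-26948561 (74.7 and 75.5 kb). They were also close for PTPN11 and RPL6 (4.55 and 4.77 kb), whose implied starts both lie inside the enhancer. The share over all N-Myc enhancers was not computed.

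CASC15, a long non-coding RNA gene of 990 kb at the chromosome 6 risk locus, showed how naming and position can part. The gene (ENSG00000272168) lies at chr6:21664415-22654684 on the plus strand, no list named it, and yet 5 N-Myc peaks lay inside it. Of the 6427 annotated genes that the N-Myc enhancer list named, 6412 were protein-coding. A long non-coding gene was thus seldom named there, and the absence of CASC15 from that list says little about the locus. The peaks were 684 bp (chr6:21781161-21781844, with site 5), 406 bp, 729 bp, 533 bp and 473 bp wide, and all were centred in introns. The enhancers under the first 4 named SOX4, a transcription factor of neural progenitors, and PRL, the prolactin gene. The 533 bp peak, chr6:22146133-22146665, also overlapped the listed promoter of NBAT1, a long non-coding RNA gene within CASC15 that restrains neuroblastoma growth. The 473 bp peak, chr6:22307390-22307862, lay in no listed region.

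The 533 bp peak also covered an annotated alternative start of CASC15 at 22146266, 1 of the gene's 77 annotated starts. When any annotated start was allowed, 3 members (ARID1A, LIN28B and CASC15) had an N-Myc peak within 1 kb, beside 14.3% of all genes (5530). From the main CASC15 start, the nearest peak lay 70.2 kb upstream at the promoter of SOX4.

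For the other unlisted genes the nearest N-Myc peak belonged to a neighbour or to no gene. The start of CHD5, a chromatin remodeller on the short arm of chromosome 1 (chr1:6161847-6240381, minus strand, ENSG00000116254), was 19.2 kb from a 329 bp peak at the promoter of RPL22, a ribosomal protein gene. The start of LMO1, a LIM-domain transcriptional cofactor (chr11:8245856-8290263, minus strand, ENSG00000166407), was 185 kb from a 393 bp peak in an intron of TUB, in an enhancer that named TUB and RIC3. The start of TERT, the catalytic subunit of telomerase (chr5:1253262-1295183, minus strand, ENSG00000164362), was 169 kb from an intergenic peak of 833 bp at chr5:1125104-1125936 that lay in no listed region. ARID1B, the paralogue of ARID1A in the same remodeller (chr6:157097154-157531913, plus strand, ENSG00000049618), was 1461 kb from the nearest peak, at the promoter of TFB1M, a mitochondrial ribosomal RNA methyltransferase, and 98.5% of all genes were as near or nearer to an N-Myc peak.

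The paralogues ARID1A and ARID1B thus stood at the ends of the order of distances. ARID1A had 16 N-Myc peaks within 500 kb of its start, more than or as many as 94.9% of genes, whereas ARID1B had 0, as did 10.0% of genes. Between them, BARD1, CASC15, LIN28B and PTPN11 had 7 each, HACE1 and CHD5 6 each, LMO1 4 and TERT 3. The nearest N-Myc super-enhancer lay 225 kb from the start of LIN28B and 302 kb from that of HACE1, in a region naming BVES and POPDC3, and 954 kb from CASC15. For the other 7 genes it was 1812 kb or farther away.

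E-boxes were also sought in promoter sequence whether or not a peak lay there. RefSeq promoter windows (GRCh38.p14) were found for 8 of the 10 genes, 11 windows in all, and CACGTG on either strand was present in 2 of them, beside 7.26% of 35116 windows. These were the TERT window, with the E-box 163 bases upstream of the start, and the LIN28B window described above. LIN28B carried an N-Myc peak there, and TERT had none within 100 kb.

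The peaks in regions naming a member were between 293 and 1561 bp wide with a median of 464 bp, beside 418 bp for all N-Myc peaks (quartiles 332 and 562 bp), and 8 of the 13 were above that median. Peak width is the only graded quantity in the lists and depends on peak calling as well as binding. GC content ran from 34.9% in a LIN28B peak to 67.9% in the peak at PIGV, so the members' peaks covered both CpG-rich promoter-like sequence and AT-rich intronic sequence. None of the 13 peaks overlapped a JMJD6 peak, beside 2.37% of all N-Myc peaks (241), so a count of 0 is near the background.

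**Figure D3:**
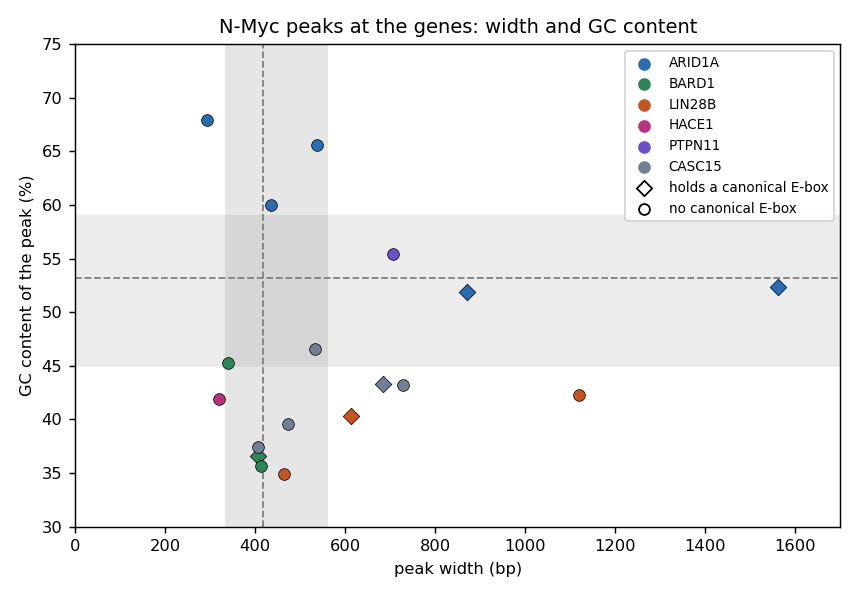
Width (bp) and GC content (%) of the N-Myc common peaks in regions naming a member and inside CASC15, coloured by gene; diamonds hold the canonical E-box and circles do not. Dashed lines are the medians over all N-Myc peaks, 418 bp and 53.2%, and grey bands the quartiles. The peaks of LIN28B, BARD1 and CASC15 lie below the GC median, as do the peak drawn for HACE1 (41.9%) and the ARID1A peaks of 52.3% and 51.9%.

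The pathways of these genes were examined through 9 lists of related genes, 119 genes apart from the 10. N-Myc promoter lists named 34 of the 119 and enhancer lists 60, beside the 17.5% and 31.8% of protein-coding genes given above. These are counts, with no test of any list. The X-linked genes ARAF, ATRX and DKC1 could not be named at a promoter, since neither promoter list has a row on chromosome X, where N-Myc had 120 common peaks and 69 enhancers.

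Among SWI/SNF subunits other than ARID1A and ARID1B, 7 of 23 were named at promoters and 14 of 23 by enhancers. The widest promoter peaks were at PBRM1 (620 bp), SMARCC2 (507 bp), ACTL6A (401 bp) and SMARCD1 (388 bp), which encode subunits of the remodeller. Of the other 8 CHD remodellers, CHD7 was the 1 named at a promoter, with a peak of 383 bp, and 6 were named by enhancers.

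In telomere maintenance, 8 of 15 genes other than TERT were named at promoters and 10 by enhancers. Several of the bound promoters belonged to the telomerase ribonucleoprotein and its assembly, with peaks of 696 bp at GAR1, 657 bp at NAF1 and 620 bp at NHP2, while the widest was 1153 bp at DAXX, a histone H3.3 chaperone. The catalytic gene TERT itself was not named, as described above.

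In the RAS-MAPK pathway around PTPN11, 4 of 23 genes were named at promoters, among them the adaptor SHC1 (963 bp) and the RAS inhibitors SPRED1 (887 bp) and SPRED2 (353 bp). Enhancers named 10 of the 23. In the LIN28 and let-7 list, promoters of 2 of 9 other genes were named, IGF2BP1 (672 bp), a let-7 target, and DIS3L2 (430 bp), the exonuclease that degrades uridylated let-7 precursors, and enhancers named 3.

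In the BARD1-BRCA1 list, 3 of 8 other genes were named at promoters, PALB2 (890 bp), BRCA1 (633 bp) and BRCA2 (586 bp), and 4 by enhancers. These partners in DNA repair carried promoter peaks, and no N-Myc peak lay within 100 kb of the BARD1 start. Of the other genes of the HACE1 list, RAB11A, a recycling-endosome GTPase, was named at a promoter (583 bp), 1 of 5, and enhancers named 2. In the LMO and LDB list, 2 of 12 other genes were named at promoters and 6 by enhancers. The promoter of GATA2 had a peak of 291 bp, whereas the listed promoter of SSBP2 held no common N-Myc peak.

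LDB1, which bridges LIM-domain cofactors such as LMO1 to transcription factors, was the 1 gene of all lists that a JMJD6 region named. A count of 1 among the 119 genes is near the 0.698% of all genes that JMJD6 lists named. LDB1 was named in 1 JMJD6 enhancer row, in 1 N-Myc enhancer row and in the list of enhancers bound by both proteins. Among other association and deletion genes, 6 of 16 were named at N-Myc promoters, with the widest peaks at SOX4 (636 bp), the kinesin KIF15 (613 bp), NBAT1 (533 bp) and the kinesin KIF1B (447 bp), and 5 by enhancers.

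**Figure D4:**
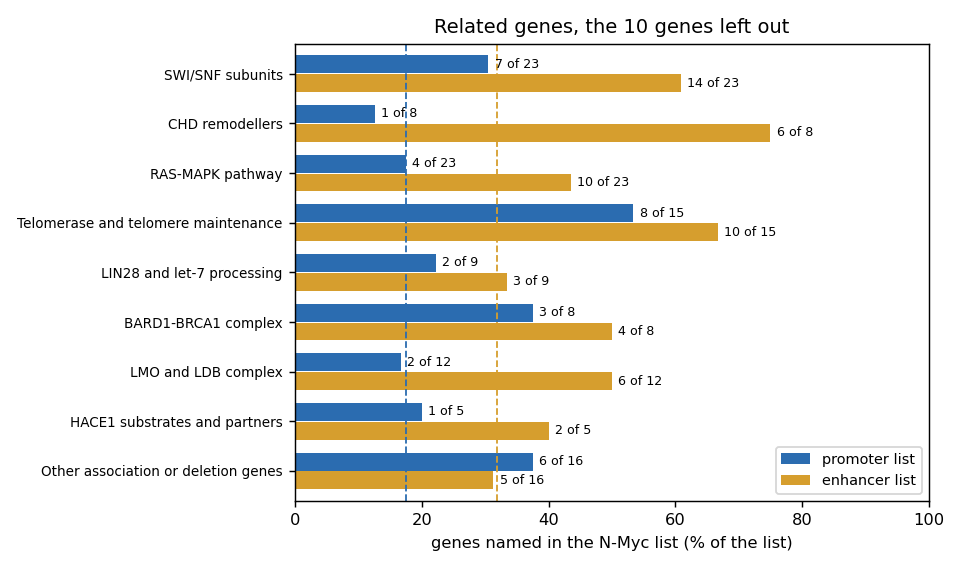
Share of each list of related genes, the 10 genes left out, that was named in the N-Myc promoter list (blue) and the N-Myc enhancer list (yellow), in % of the list, with the counts beside the bars. Dashed lines are the shares of protein-coding genes, 17.5% at promoters and 31.8% at enhancers. The telomere list has the highest promoter share, 8 of 15, and the CHD list the highest enhancer share, 6 of 8.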

How the data were processed

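The authors aligned reads to hg19 with BWA, used SAMtools and bedtools, and called peaks against input with MACS2 2.1.1.20160309 (submitters' processing notes), at q under 0.05 and in all 3 replicates. The deposited lists hold positions in bp, with no score, count or coverage. Promoters were 1 kb on each side of RefSeq starts, enhancers came from ROSE (stitching distance 12.5 kb) after H3K27ac near starts was subtracted, and GREAT named up to 2 genes within 1000 kb.

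Gene symbols, with RefSeq synonyms, were matched to GENCODE 44 lifted to GRCh37. Of 4905 N-Myc promoters with a known symbol, 87.7% lay within 100 bp of an annotated start, and of 169 JMJD6 promoters 88.2%. Peaks were counted as in a region from 1 bp of overlap. Intervals are exact (Clopper-Pearson, 95%) and cover counting only. Python 3.11.15, numpy 2.4.6, SciPy 1.17.1, pysam 0.24.0 and matplotlib 3.10.9 were used, and the counting was tested on simulated data. The 10 genes and the related lists were chosen with earlier results of these data known. Named genes were the 10, genes sharing their regions, related genes in a JMJD6 list, and up to 4 per list with the widest promoter peak. SSBP2 and the genes at the nearest peaks and on chromosome X were named after their values were seen. Some items are not reported here. Alternatives varied the start sites, windows, peak width, overlap, enhancer rows, background and motifs. Sequences came from GRCh37 and RefSeq.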

Additional observations from a re-analysis of the deposited data

How the results depend on the processing

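Of 43 alternative values, 31 stayed within the limits set for a change and 12 moved, 3 of them distances of single genes: allowing any annotated start brought the nearest N-Myc peak to 98.8 kb for BARD1 and to 0 kb for CASC15 and LIN28B. Values within the limits were not all unchanged. Requiring the member to be the nearer gene took the enhancers from 9 to 6 and the members named from 5 to 4. Any annotated start took the median N-Myc distance of the 10 genes from 83.5 to 58 kb. The count of members at N-Myc promoters rose from 1 to 3 with a peak within 1 kb of any annotated start, and was also 3 within 5 kb. Without enhancers over a listed promoter, enhancers naming a member went from 9 to 4 and members named from 5 to 3. With protein-coding genes alone the background rose to 17.5% at promoters and 31.8% at enhancers. CACGTG within 100 bp of the peak centre left 2 of the 13 peaks (23.5% of all N-Myc peaks), and counting CACGCG and CATGTG as well gave 8 (72.9%). At member promoters alone the median peak width was 866 bp, which rests on the 2 peaks (612 and 1120 bp) of the LIN28B promoter. JMJD6 counts stayed at 0 under each alternative run for them. No paired analysis was possible because the lists have no column per sample, although both antibodies share replicate numbers, and for the same reason no replicate could be left out. With no score in the lists, peak width stood in for a stricter threshold.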

Other observations

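Super-enhancers bound by N-Myc named 6 of the 119 related genes, beside 0.683% of all genes. The share of protein-coding genes, used as background for the related lists above, was not computed for super-enhancers, so the 2 backgrounds are unlike. The 6 genes were the CHD remodellers CHD2, in 2 rows, and CHD9, the transcription factor GATA3, the LDB1 partner SSBP3, SOX4 and the cell-cycle inhibitor CDKN1B. SOX4, the neighbour of CASC15, was also named in 6 rows of the N-Myc enhancer list, where 0.446% of all genes had 4 or more. The share with 6 or more rows was not computed, nor was the share of protein-coding genes. These genes were named here after their values were seen, and no JMJD6 super-enhancer named any of the 119.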
